A study of Homo sapiens with 6 samples.

Results

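The replication-dependent histone genes make up 66 of the 61806 genes in the count table of MDA-MB-231 cells. They were chosen by gene symbol alone, in the old style (HIST1H2BK) or the current style (H2BC12), with pseudogenes left out. The 66 genes comprised 6 H1, 16 H2A, 17 H2B, 13 H3 and 14 H4 genes. On hg38, 55 of them lay on chromosome 6 between 25726063 and 27893891, and 11 lay on chromosome 1 between 149782689 and 149887965.

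MDA-MB-231 is a human triple-negative breast cancer line, and all 6 libraries are labelled as it. The Control group held 3 libraries, whose vehicle is not stated for the sequencing experiment, and the ParishinB group held 3 libraries from cells given PB, a natural phenolic glucoside. The dose of 20 μM and the time of 24 h come from the study's methods and not from the labels. RNA was captured on oligo(dT) beads, primed at random, and read as pairs of 150 bases. Whether libraries of a group came from separate cultures is not stated, so the p-values speak for these libraries only.

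Replication-dependent histone mRNAs are the class of animal mRNA that normally ends in a short hairpin, the stem-loop, instead of a poly(A) tail. The hairpin is bound by SLBP, the cut is directed by the U7 snRNP, and transcription is driven in S phase from bodies that hold NPAT, so that the core histones H2A, H2B, H3 and H4 and the linker histone H1 are made while DNA is copied. A few of these genes also read through the hairpin into a downstream poly(A) signal and give polyadenylated mRNA. Capture on oligo(dT) keeps polyadenylated RNA, so each level below is that of the captured transcripts and not of the whole histone mRNA pool.

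The stem-loops are shown first because they mark the end that a poly(A) library is not built to catch. A hairpin with a stem of 6 base pairs starting in GG and a loop of 4 bases starting in TT was searched after the stop codon in GENCODE v29 transcripts, and 62 of the 66 genes had such a transcript. It was found in 24 of the 62, and at any place in a transcript in 119 of 19684 protein-coding genes, or 0.605%. Many transcripts of the other 38 genes stop at the stop codon in that annotation, so a missing match says only that the letters are not in the annotated piece. The hairpins of 6 genes are given 5′ to 3′ as DNA of the gene's strand on GRCh38, with stem and loop in capitals and 5 bases on each side.
H2AC6: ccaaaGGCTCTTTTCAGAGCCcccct
H2BC21: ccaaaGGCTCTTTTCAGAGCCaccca
H2BC4: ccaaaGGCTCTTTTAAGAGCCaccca
H3C8: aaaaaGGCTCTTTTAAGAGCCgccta
H4C5: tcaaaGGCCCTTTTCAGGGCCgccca
H4C9: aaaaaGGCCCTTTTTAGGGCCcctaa
These lie at chr6:26124664-26124689 (plus strand), chr1:149886183-149886208 (minus), chr6:26123467-26123492 (minus), chr6:26270918-26270943 (minus), chr6:26204996-26205021 (plus) and chr6:27139649-27139674 (plus), each in the 3′ untranslated part, with 57 bases or fewer between stop codon and hairpin. The capitals took 4 forms, and the form of H2AC6 and H2BC21 was found in 13 genes of the H2A, H2B and H3 classes. The form of H2BC4 and H3C8 was found in 4 genes, that of H4C5 in 4 and that of H4C9 in 3, and the last 2 forms were found in H4 genes alone. In the coordinates of the deposited table, 12 of the 24 genes end within 10 bases of the hairpin, 11 go on for more than 100 bases past it, and 1 lies between. H3C8, H2BC9 and H4C5 are among the genes that end there, each 5 bases past it. Their GENCODE v29 transcripts go on for 1518, 1640 and 1022 bases past the hairpin, a stretch that lies outside their deposited spans. H2BC21 goes on for 1729 bases in the same exon, and H3C10 for 769. H2AC6 goes on over a spliced second exon, its span ending 14432 bases downstream for an exonic length of 1668 bases.

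Captured levels were low for most of the genes. Of 66, 5 had 0 counts in all 6 libraries, which allows up to 3 counts or 0.136 to 0.191 CPM, and 27 had at most 3 counts in every library. CPM is the count scaled to the library's total count, and FPKM also divides by the exonic length. The minimum for testing, 0.1 FPKM averaged over all libraries, was reached by 44 genes, and 22 were under it. A mean of at least 1 FPKM was reached by 21, and of at least 10 by 3. These were H2BC12 with 50.2, H2AC6 with 20.1 and H1-2 with 16.6 FPKM. Intervals and floors given here cover counting error only. Every stretch of 100 bases in the longest transcripts of H3C4, H3C14, H3C15, H4C14 and H4C15 also occurs in another annotated gene. How reads that match more than 1 gene were counted is not stated. A count near 0 for such genes therefore need not mean little captured RNA.

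The Control libraries go against the label in part. CDH1 (E-cadherin), which MDA-MB-231 is known to lack, had 428, 387 and 522 counts in Control and 2, 0 and 2 in ParishinB, while VIM lay at 603.0 ± 11.8 and 635.0 ± 3.91 FPKM. Among the other genes checked, CD44 had means of 52.2 FPKM in Control and 40.5 in ParishinB, and ERBB2 of 2.95 and 3.59. EPCAM (0.423 and 0.207 FPKM), ESR1 (0.0733 and 0.147) and PGR (0.05 and 0.07) were low in both groups. At least 30 counts in every Control library and at most 3 in every ParishinB library was met by 113 genes, and the reverse by 1. None of the 66 histone genes was among either, but 40 of them had 10 counts or fewer in every library and could not meet either pattern. The CDH1 counts and the 113 genes are shared by all 3 Control libraries. A mixture with other cells, or another line, therefore cannot be told apart from the treatment. Its part in the histone results was not tested.

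Summed over all 66 genes, the level was 119.3 ± 2.97 CPM in Control and 126.0 ± 3.12 CPM in ParishinB (SD, n = 3). The direction of that sum is not settled, because with TMM-scaled library sizes the log2 ratio turned from 0.08 to -0.05. TMM (trimmed mean of M-values) sets library sizes so that most genes stay level, and its factors were 0.948 to 0.962 in Control and 1.04 to 1.05 in ParishinB. Scaled by library size alone, all tested genes had a median log2 change of 0.14, against 0.011 with TMM. In bulk RNA, fewer cells in S phase and less histone RNA per cell cannot be told apart.

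By class, the H2A sum was higher and the H3 and H2B sums were lower in ParishinB, with no overlap between groups, while the H1 and H4 groups overlapped. The H2A genes summed to 32.1, 34.3 and 30.4 CPM in Control and 49.5, 45.9 and 46.9 CPM in ParishinB. H2AC6 carried this difference, since the other 15 H2A genes summed to 6.92 ± 1.25 CPM in Control and 5.57 ± 0.541 CPM in ParishinB. The H3 genes summed to 6.68, 7.41 and 6.60 CPM in Control and 3.90, 4.34 and 4.17 CPM in ParishinB. Without H3C8 the other 12 H3 genes still did not overlap, at 5.35 ± 0.473 and 3.68 ± 0.297 CPM. The H2B genes, the class with the highest sum, gave 59.5, 61.8 and 61.9 CPM in Control and 56.9, 54.6 and 55.8 CPM in ParishinB. Without H2BC12 the direction turned, with the other 16 H2B genes at 32.8 ± 0.763 CPM in Control and 34.4 ± 1.94 CPM in ParishinB and overlapping groups. Without H2BC21 as well, the other 15 H2B genes summed to 28.4 ± 1.68 CPM in Control and 24.6 ± 1.14 CPM in ParishinB. The H1 sum was 12.9 ± 1.74 CPM in Control and 12.3 ± 0.941 CPM in ParishinB, and the H4 sum was 6.11 ± 0.363 and 6.37 ± 0.559 CPM. With TMM-scaled library sizes the log2 ratio of the H4 sum turned from 0.06 to -0.07, and the other 4 classes kept their sign.

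**Figure D1:**
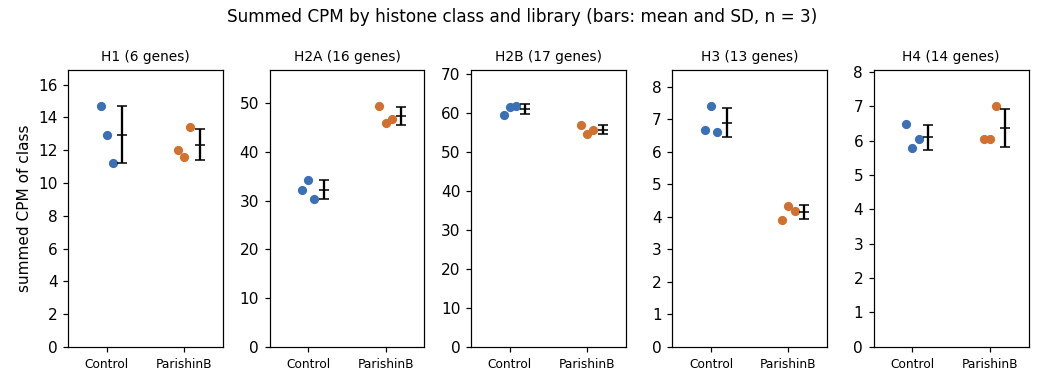
Summed CPM of each histone class (vertical axis, starting at 0) in the 3 Control and 3 ParishinB libraries, with a point per library and bars for mean and SD. The H2A points lie at 30.4 to 34.3 CPM in Control and 45.9 to 49.5 CPM in ParishinB, the H3 points at 6.60 to 7.41 and 3.90 to 4.34 CPM, and the H1 and H4 points overlap.

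The deposited counts of each gene went into the quasi-likelihood test of edgeR among the 24200 genes at the FPKM minimum. A gene was called when the p adjusted by Benjamini-Hochberg was 0.05 or less and the log2 change reached 1 up or down. In this fit the spread was pooled over the tested genes (median prior degrees of freedom infinite). A small edgeR p therefore does not show that a gene's own replicates were tight. Of the 44 histone genes tested, 5 were called lower and 2 higher in ParishinB. That is 11.4% lower, beside 6.73% of all tested genes, and 4.55% higher, beside 5.36% of all tested genes. The median log2 fold change of the 44 genes was -0.31, beside 0.011 over all tested genes. It was -0.18 with genes at 3 counts or fewer in a single group set to the bound that floor allows. For that value the 6 genes at the floor in both groups were left out. By adjusted p without the fold line, 9 were lower and 3 higher, 20.5% and 6.82% of the 44 beside 26.1% and 24.1% of all tested genes. In FPKM the groups did not overlap for 9 lower and 5 higher genes, beside 21.6% and 34.1% of all tested genes. These backgrounds hold deeper genes, with a median of 455 counts over the 6 libraries against 50 for the histone genes. Of the 11 histone genes with at least 300 counts, 1 was called lower and 1 higher, and 4 and 2 passed by adjusted p alone, where 40.4% and 34.8% of all tested genes of that depth passed by adjusted p.

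**Figure D2:**
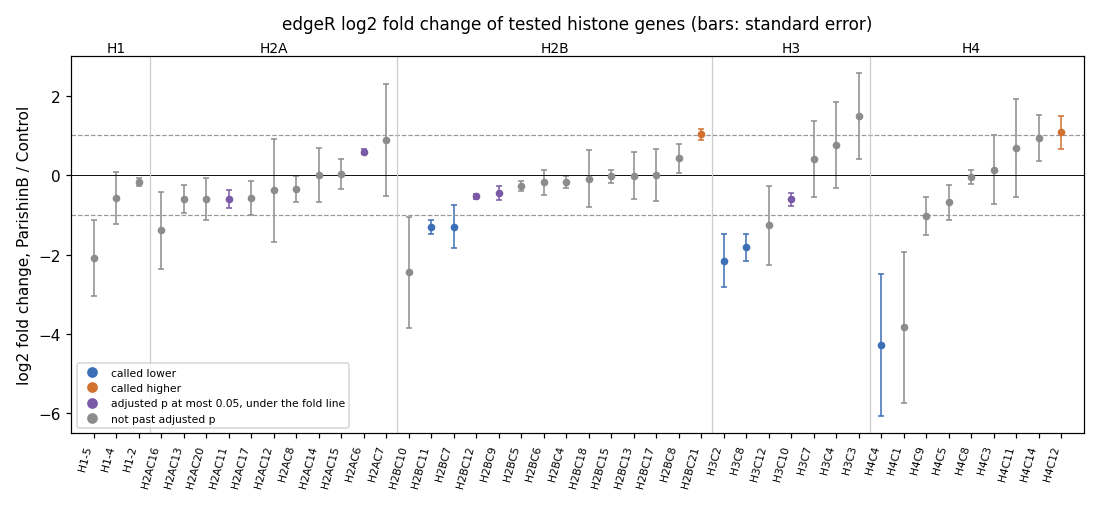
edgeR log2 fold change of ParishinB over Control (vertical axis, bars are the standard error) for the 44 tested histone genes by class, with dashed lines at 1 and -1. The 5 genes called lower and 2 called higher are coloured, and 5 more passed by adjusted p under the fold line. Standard errors reached 1.90 for genes with under 30 counts, against at most 0.186 for those with at least 300. The 1.90 is that of H4C1, which had 0 counts in every ParishinB library.

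Among the H2A genes, whose product pairs with H2B in the nucleosome, H2AC6 stood apart. H2AC6 (ENSG00000180573, chr6:26124145-26139116, plus strand) had 426, 444 and 527 counts in Control and 701, 623 and 790 in ParishinB. In FPKM it lay at 15.7, 15.5 and 14.4 in Control and at 26.5, 23.8 and 25.0 in ParishinB. All 3 ParishinB libraries exceeded all 3 Control libraries. The log2 fold change was 0.60 (standard error 0.058, edgeR adjusted p = 1.41e-23), under the fold line, and it stayed between 0.55 and 0.63 with any library left out. No 100-base window of its transcripts was found in another gene. H2AC11 had 4.23, 5.92 and 4.52 FPKM in Control and 2.68, 4.01 and 3.85 in ParishinB, without overlap. Its log2 fold change was -0.60 (standard error 0.22), past the line by edgeR (adjusted p = 0.0177) but not by DESeq2 (adjusted p = 0.0975), and not by edgeR without Control replicate 2 (adjusted p = 0.136) or ParishinB replicate 1 (adjusted p = 0.122). H2AC8, H2AC13 and H2AC15 overlapped between groups, with log2 fold changes of -0.35, -0.60 and 0.020 and none past adjusted p. Of the 100-base windows of H2AC13, 57.7% occur in H2AC14, so part of its reads is uncertain. H2AC7 did not overlap but rested on 2 counts in Control and 4 in ParishinB, and 97.6% of its 100-base windows occur in another annotated gene. In all, 1 of the 11 tested H2A genes passed by adjusted p in each direction, and none was called by edgeR, DESeq2 or limma.

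**Figure D3:**
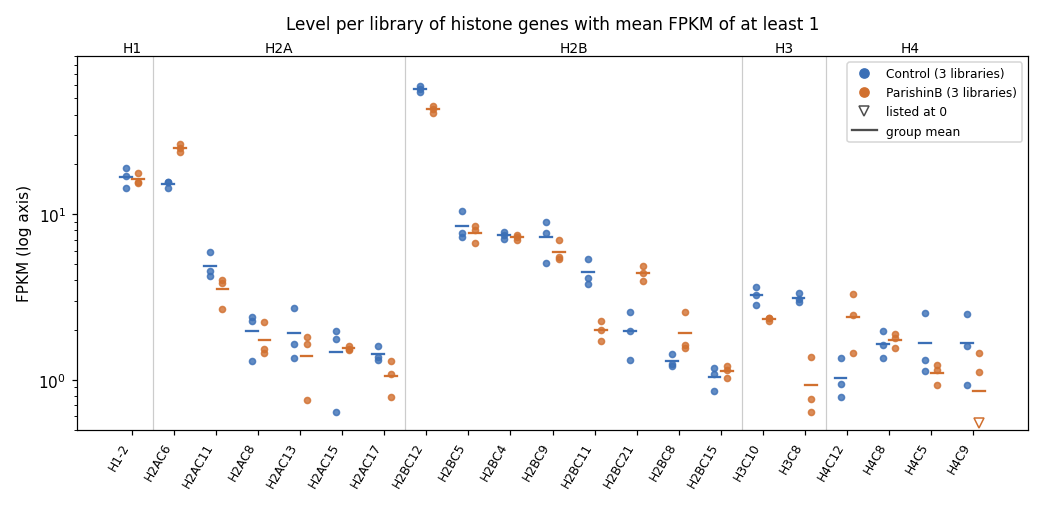
FPKM per library (log axis) of the 21 histone genes with a mean of at least 1, ordered by class and level, with a point per library, a bar at the group mean and an open triangle at the bottom for a library listed at 0. H2BC12 sits highest at 41.0 to 59.7 FPKM. H2AC6, H2BC8, H2BC21 and H4C12 lie wholly higher and H2AC11, H2AC17, H2BC11, H2BC12, H3C8 and H3C10 wholly lower in ParishinB.

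The H2B genes held the highest level and moved in both directions. H2BC12 (ENSG00000197903, chr6:27146361-27146855, minus strand) had 441, 506 and 622 counts in Control and 322, 336 and 425 in ParishinB. This was 54.6, 59.7 and 57.2 FPKM against 41.0, 43.3 and 45.3 FPKM, with every ParishinB library below every Control library. Its log2 fold change was -0.53 (standard error 0.068, edgeR adjusted p = 1.41e-14), under the fold line. H2BC12 shares 28.4% of its 100-base windows with other genes, among them H2BC12L, so part of its reads is uncertain.

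H2BC11 (ENSG00000124635, chr6:27125897-27132795, minus strand) had 65, 74 and 124 counts in Control and 33, 28 and 45 in ParishinB. In FPKM the Control libraries lay at 3.81 to 5.39 and the ParishinB libraries at 1.71 to 2.27. The gene fell by 1.30 on the log2 scale (standard error 0.18, edgeR adjusted p = 4.29e-12) and was called with each of the 6 libraries left out. H2BC21 (ENSG00000184678, chr1:149884459-149886682, minus strand) had 48, 98 and 97 counts in Control and 171, 138 and 185 in ParishinB. Control replicate 1 was the lowest of the 6, and no ParishinB library reached down to the Control values. H2BC21 rose by 1.03 on the log2 scale (standard error 0.13, edgeR adjusted p = 8.55e-15). Its adjusted p was larger by DESeq2, at 3.35e-07, and by limma, at 0.00553. Without Control replicate 1 its edgeR log2 fold change was 0.84, and without ParishinB replicate 1 it was 0.96. Both were under the fold line with edgeR adjusted p still past 0.05.

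The other H2B genes changed less or were measured less well. H2BC7, named after its values were seen because it was called, had 15, 11 and 6 counts in Control and 2, 6 and 5 in ParishinB. The groups touch at 6, the log2 fold change was -1.30 (standard error 0.54, edgeR adjusted p = 0.0324), and DESeq2 did not call it (adjusted p = 0.110). The edgeR call was also lost without Control replicate 1 or 2 or ParishinB replicate 1 or 3, where the adjusted p reached 0.276. H2BC9 had a log2 fold change of -0.45 (edgeR adjusted p = 0.0337) with overlapping groups of 5.04 to 8.96 and 5.38 to 6.95 FPKM, and did not pass by DESeq2 (adjusted p = 0.180), or by edgeR without Control replicate 2 or 3 or ParishinB replicate 2 or 3 (adjusted p of 0.0838 to 0.392). H2BC4 and H2BC5, with 564 and 730 counts in all, had log2 fold changes of -0.17 (standard error 0.14) and -0.26 (standard error 0.13) and did not pass. H2BC5 passed by adjusted p alone without Control replicate 2 or 3 or ParishinB replicate 2 (edgeR adjusted p of 0.0156 to 0.0436). H2BC8 rested on 82 counts and had a log2 fold change of 0.42 (standard error 0.37), also short of the test. Of the 14 tested H2B genes, 2 were called lower and 1 higher.

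The H3 class leaned lower among its better measured genes. H3C8 (ENSG00000273983, chr6:26270918-26271413, minus strand) had 27, 26 and 32 counts in Control and 6, 5 and 13 in ParishinB. Control libraries lay at 2.93 to 3.34 FPKM and ParishinB libraries at 0.64 to 1.38 FPKM. The gene fell by 1.81 on the log2 scale (standard error 0.35, edgeR adjusted p = 5.33e-07) and was called with each library left out. H3C2 (ENSG00000286522, chr6:26031589-26032099, minus strand) had 9, 11 and 8 counts in Control and 2, 4 and 0 in ParishinB. It fell by 2.16 on the log2 scale (standard error 0.67, edgeR adjusted p = 0.00314), and without ParishinB replicate 3 the adjusted p was 0.0603. H3C10, the H3 gene with the most counts, had 58, 78 and 89 in Control and 45, 46 and 56 in ParishinB. Its FPKM values of 2.84 to 3.64 and 2.27 to 2.36 did not overlap, and its log2 fold change of -0.61 (standard error 0.17, edgeR adjusted p = 0.00124) was under the fold line. H3C7 and H3C3 had 14 and 12 counts in all and log2 fold changes of 0.40 and 1.49 with standard errors of 0.95 and 1.08. Of the 7 tested H3 genes 2 were called lower and none higher. At an unadjusted p under 0.05 none of them was higher either.

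Among the H4 genes the calls rested on few reads. H4C12 (ENSG00000273542, chr6:27831174-27831560, minus strand) had 5, 9 and 8 counts in Control and 9, 20 and 18 in ParishinB. In FPKM the groups did not overlap, at 0.79 to 1.36 and 1.46 to 3.30. It rose by 1.08 on the log2 scale (standard error 0.42, edgeR adjusted p = 0.0214), was not called by DESeq2 (adjusted p = 0.102), and lost its call without Control replicate 1, Control replicate 3, ParishinB replicate 2 or ParishinB replicate 3, where the adjusted p was 0.0704, 0.0735, 0.178 and 0.0693. All 100-base windows of its 312-base coding transcript occur in H4C11, which has 8 counts in all, so reads inside the coding part are uncertain between them. H4C4 was called lower on 1, 2 and 4 counts in Control against 0, 0 and 0 in ParishinB, too few for a fold. By edgeR its adjusted p was 0.0340, and the call was kept without Control replicate 1 and lost without Control replicate 2 or any ParishinB replicate (adjusted p of 0.0578 to 0.0918), while without Control replicate 3 the gene was under the minimum for testing. H4C1, not called, had 1, 1 and 3 against 0, 0 and 0. H4C8, the best measured H4 gene with 388 counts, had 1.98, 1.35 and 1.62 FPKM in Control and 1.89, 1.56 and 1.78 in ParishinB. Its groups overlapped and its log2 fold change was -0.046 (standard error 0.17). H4C9, H4C5 and H4C3 had log2 fold changes of -1.03, -0.69 and 0.14, none past the test (edgeR adjusted p = 0.0598, 0.206 and 0.915). H4C9 was called lower without Control replicate 1 (adjusted p = 0.0228) or without ParishinB replicate 3 (adjusted p = 0.0323).

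H1 genes, which encode the linker histone, showed no call. H1-2 had 19.1, 17.1 and 14.4 FPKM in Control and 15.5, 15.7 and 17.6 in ParishinB, with overlapping groups. Its log2 fold change was -0.16 (standard error 0.097, edgeR adjusted p = 0.155). H1-4 had 30 counts and H1-5 17 counts in all. The log2 fold change was -0.57 for H1-4 (standard error 0.65) and -2.09 for H1-5 (standard error 0.97, edgeR adjusted p = 0.0597). By edgeR, H1-5 was called lower without Control replicate 2 (adjusted p = 0.0254), and H1-2 passed by adjusted p alone without Control replicate 3 (log2 fold change -0.28, adjusted p = 0.0206). Over the 3 tested H1 genes 0 passed by adjusted p with edgeR or DESeq2, and 1, H1-5, had an unadjusted edgeR p under 0.05, at 0.0306.

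From general knowledge, 7 of the 66 genes were listed as ones that also make polyadenylated transcripts (H1-2, H2AC6, H2BC4, H2BC5, H2BC11, H2BC12 and H2BC21). The annotation was read beside that list. A GENCODE v29 transcript with AATAAA or ATTAAA near its end, or past the hairpin, was found for 5 of the 7, not for H1-2 and H2BC12, and for 14 of the other 55 genes with a transcript. H1-2 and H2BC12 each have 1 transcript there, of 642 and 381 bases, shorter than their deposited exonic lengths of 731 and 495 bases. As for the hairpin, a missing match says only that the letters are not in the annotated piece. The 7 listed genes took 73.5% ± 0.763 of the counts of all 66 genes in Control and 78.4% ± 0.358 in ParishinB (SD, n = 3), although they are 7 genes of 66. All 7 were tested, of which 1 was called lower and 1 higher, while of the other 59 genes 37 were tested, of which 4 were called lower and 1 higher. Of all tested genes, 6.73% were called lower and 5.36% higher, or 6.61% and 3.71% of those with at least 300 counts. The numbers called are too small to set the 7 apart from the others. The median log2 fold change was -0.17 for the 7 and -0.38 for the 37. These medians differ in depth, since all 7 had at least 300 counts and the 37 include the 15 genes with under 30 counts. The value of -0.38 is that of H2AC12, with 7 counts in all and a standard error of 1.3. The difference between the medians was not tested. H2AC6 took 21.2% ± 0.610 of the histone counts in Control and 33.2% ± 1.05 in ParishinB. H2BC12 went the other way, from 23.7% ± 0.956 to 17.0% ± 1.02. H2BC21 went from 3.65% ± 1.12 to 7.75% ± 0.605, and H2BC11 from 3.91% ± 0.825 to 1.65% ± 0.206.

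**Figure D4:**
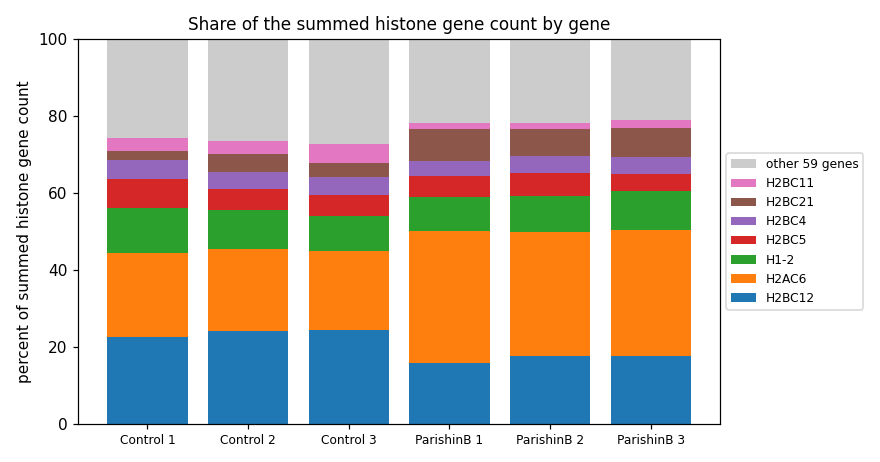
Percent of the summed count of the 66 histone genes (vertical axis, 0 to 100) taken by each of 7 genes listed from general knowledge as making polyadenylated transcripts and by the other 59, per library. H2AC6 widens from 21.2% on average in the 3 Control libraries to 33.2% in the 3 ParishinB libraries, and H2BC12 narrows from 23.7% to 17.0%.

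Ratios of counts inside a library need no scaling between libraries. They are given as a description, since their genes were paired after the values were seen. The ratio of H2AC6 to H2BC12 counts was 0.966, 0.878 and 0.847 in Control and 2.18, 1.85 and 1.86 in ParishinB. It was 2.19 times higher in ParishinB on average, with no overlap. The ratio of H2BC21 to H2BC12 was 0.153 ± 0.0425 in Control and 0.459 ± 0.0636 in ParishinB, and that of H2BC11 to H2BC12 was 0.164 ± 0.0303 and 0.0972 ± 0.0122 (SD, n = 3). Neither overlapped. The ratio of H4C12 to H4C8 was 0.118 ± 0.0557 and 0.254 ± 0.120, and its groups overlapped.

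Histone genes sit close together, and H2A and H2B genes formed 11 head-to-head pairs with 169 to 250 bases between their starts. In these pairs the start region is shared, so levels on both sides can be set beside each other. In 9 pairs both genes were tested, and the log2 fold changes had the same sign in 3 and opposite signs in 6. Some of these signs rest on values near 0, such as 0.020 for H2AC15 and -0.032 for H2BC15. Both genes passed by adjusted p in none of the 6 and, of the 3, only in H2BC11 and H2AC11. H2BC12 and its neighbour H2AC12 lay 250 bases apart, at mean levels of 50.2 and 0.158 FPKM. H2BC21 and H2AC20, 235 bases apart, had log2 fold changes of 1.03 and -0.60 (standard error 0.53, edgeR adjusted p = 0.371 for H2AC20). H2AC6 and H2BC4, 218 bases apart, had 0.60 and -0.17, and H2BC11 and H2AC11, 247 bases apart, had -1.30 and -0.60. The difference within a pair was not tested.

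Promoters are shown for H2BC12 and H2BC11, which were lower by adjusted p as were H2BC7 and H2BC9. Those of H2BC21 and H2AC6, which were higher, are shown to let their layout be compared. RefSeq promoters, from 250 bases before to 50 bases after the annotated start on GRCh38.p14, matched 61 of the 66 genes. They are printed 5′ to 3′ on the gene's strand, with capitals at matches, on either strand, to the octamer ATTTGCAT, to TATAAA and to CCAAT, which may overlap each other.
H2BC12: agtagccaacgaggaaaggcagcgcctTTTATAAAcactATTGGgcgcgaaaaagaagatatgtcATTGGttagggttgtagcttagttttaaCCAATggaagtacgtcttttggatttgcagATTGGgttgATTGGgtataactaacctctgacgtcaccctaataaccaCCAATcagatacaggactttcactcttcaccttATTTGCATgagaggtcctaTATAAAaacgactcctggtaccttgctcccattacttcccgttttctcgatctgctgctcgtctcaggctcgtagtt
H2BC11: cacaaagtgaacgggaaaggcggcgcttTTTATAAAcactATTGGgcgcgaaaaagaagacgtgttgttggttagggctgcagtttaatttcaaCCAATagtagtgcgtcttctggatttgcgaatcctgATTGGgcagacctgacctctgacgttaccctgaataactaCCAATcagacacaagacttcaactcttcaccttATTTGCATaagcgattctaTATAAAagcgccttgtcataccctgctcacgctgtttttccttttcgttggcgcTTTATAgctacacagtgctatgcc
H2BC21: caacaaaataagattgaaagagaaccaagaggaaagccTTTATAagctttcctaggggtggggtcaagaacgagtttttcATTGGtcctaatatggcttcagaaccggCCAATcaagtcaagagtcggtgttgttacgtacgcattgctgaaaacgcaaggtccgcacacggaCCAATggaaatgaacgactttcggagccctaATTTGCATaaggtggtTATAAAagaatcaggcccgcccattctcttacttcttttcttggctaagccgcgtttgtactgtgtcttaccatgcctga
H2AC6: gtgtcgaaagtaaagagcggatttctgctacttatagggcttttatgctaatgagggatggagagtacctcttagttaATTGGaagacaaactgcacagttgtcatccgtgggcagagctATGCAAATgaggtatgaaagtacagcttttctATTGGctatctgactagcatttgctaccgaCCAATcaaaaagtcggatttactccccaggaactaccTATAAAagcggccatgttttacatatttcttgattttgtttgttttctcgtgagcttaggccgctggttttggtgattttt
The windows are chr6:27146809-27147108 (minus strand), chr6:27132746-27133045 (minus), chr1:149886633-149886932 (minus) and chr6:26123922-26124221 (plus). Counted from the start, the octamer began at -46 in H2BC12, -47 in H2BC11, -46 in H2BC21 and -130 in H2AC6. The TATAAA match nearest upstream of the start began at -27, -28, -30 and -31 in the same order, and further matches began between -223 and -212 in H2BC11, H2BC12 and H2BC21 and at 26 in H2BC11. H2BC12 held 6 matches to CCAAT, H2BC11 4, and H2BC21 and H2AC6 3 each. The promoters of H2BC12 and H2BC11, aligned without gaps, were identical at 149 bases, or 49.7% of 300 bases. That placed them at rank 2 of the 136 pairs of H2B promoters, whose median was 31.7%. The promoters of H2BC7 and H2BC9 were 30.7% to 31.7% identical to those of H2BC11 and H2BC12, near that median. H2BC13, with a log2 fold change of -0.017, had a promoter 44.7% identical to that of H2BC11.

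Over the classes the octamer was found in 82.4% of the 17 H2B promoters and 73.3% of the 15 H2A promoters, beside 1.77% of all 35116 promoters in the RefSeq table. It was found in 1 of 11 H3 promoters, that listed for H3C4, whose RefSeq window is the same as that of H2AC7 and lies away from the deposited H3C4 span, so it counts an H2A promoter a second time, and in none of the 6 H1 and 12 H4 promoters. TATAAA was found in 67.2% of the 61 histone promoters and 11.5% of all. CCAAT was found in all H1, H2A, H2B and H3 promoters, in 25.0% of the H4 promoters and in 34.6% of all. Genes with and without these letters both occurred among those that moved, since H2BC11 and H2BC21 hold all 3 motifs while H3C8 holds no octamer and no TATAAA. A match is a description of the letters only.

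Other genes inside the same stretches of chromosome were counted beside the histone genes. On chromosome 6, 85 genes outside the 66 lay inside the span and 54 were tested, of which 1 was called lower and 5 higher, or 1.85% and 9.26% beside 6.73% and 5.36% of all tested genes. By adjusted p alone 8 were lower and 18 higher, 14.8% and 33.3% beside 26.1% and 24.1%, and the median log2 fold change was 0.42. The histone genes of that span had a median of -0.37. The gene called lower was H2AC10P, a histone pseudogene, and those called higher with a symbol were BTN1A1, LINC01012 and ZNF204P, all named after their values were seen. On chromosome 1, 4 such genes lay inside the span, 2 were tested and none was called by edgeR, though both passed by adjusted p alone as lower.

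The genes that supply and handle histones were read beside the 66 genes, from a list of 31. Of these, 4 were called lower and none higher by edgeR or DESeq2, and by adjusted p alone 24 were lower, 3 higher and 4 did not pass. That is 12.9% called lower and 77.4% lower by adjusted p. All 31 genes had at least 300 counts, and of all tested genes of that depth 6.61% were called lower and 40.4% were lower by adjusted p. With library size alone the counts by adjusted p were 22 lower and 6 higher. The list's median log2 fold change was -0.38, beside 0.011 over all tested genes.

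Factors of stem-loop processing came first in the path of a histone mRNA. SLBP, which binds the hairpin, had 70.1, 70.4 and 68.9 FPKM in Control and 40.0, 42.4 and 39.4 in ParishinB. The groups were far apart, and the log2 fold change of -0.92 (standard error 0.036, edgeR adjusted p = 7.62e-138) was just under the fold line. Of the 11 genes listed for stem-loop processing alone, 10 were lower by adjusted p, and LSM10, a U7 snRNP subunit, did not pass at 0.13 (adjusted p = 0.140). LSM11, the other U7-specific subunit, had -0.23 (standard error 0.065, edgeR adjusted p = 0.00109), which did not pass with library size alone. NPAT, which drives histone gene transcription, had 9.78, 8.91 and 9.01 FPKM in Control and 7.88, 8.04 and 7.91 in ParishinB. NPAT was lower in each ParishinB library, with a log2 fold change of -0.35 (standard error 0.043, edgeR adjusted p = 3.73e-15). CASP8AP2, a partner of NPAT in histone locus bodies, had -0.27 (standard error 0.037, edgeR adjusted p = 6.45e-13).

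All 4 supply genes called lower were chaperones of new histones or parts of the replication machinery. MCM2, a helicase subunit that also binds H3 and H4, went from 23.5 ± 0.382 FPKM in Control to 8.69 ± 0.221 FPKM in ParishinB (SD, n = 3) and fell by 1.56 on the log2 scale (standard error 0.042). ASF1B, which hands over H3 and H4, fell by 1.37 on the log2 scale, from 30.4 ± 0.241 to 12.8 ± 0.780 FPKM. CHAF1B and CHAF1A, subunits of chromatin assembly factor 1, fell by 1.29 and 1.10 on the log2 scale. CHAF1A was under the fold line with library size alone and with limma (-0.97 and -0.96), and TONSL was called lower as well without Control replicate 2. Of the 14 genes listed for chaperoning or deposition, 10 were lower and 2 higher by adjusted p. Among all tested genes with at least 300 counts, 40.4% were lower and 34.8% higher. The paralogue ASF1A had 0.34 (standard error 0.038) and was higher by adjusted p under the fold line.

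**Figure D5:**
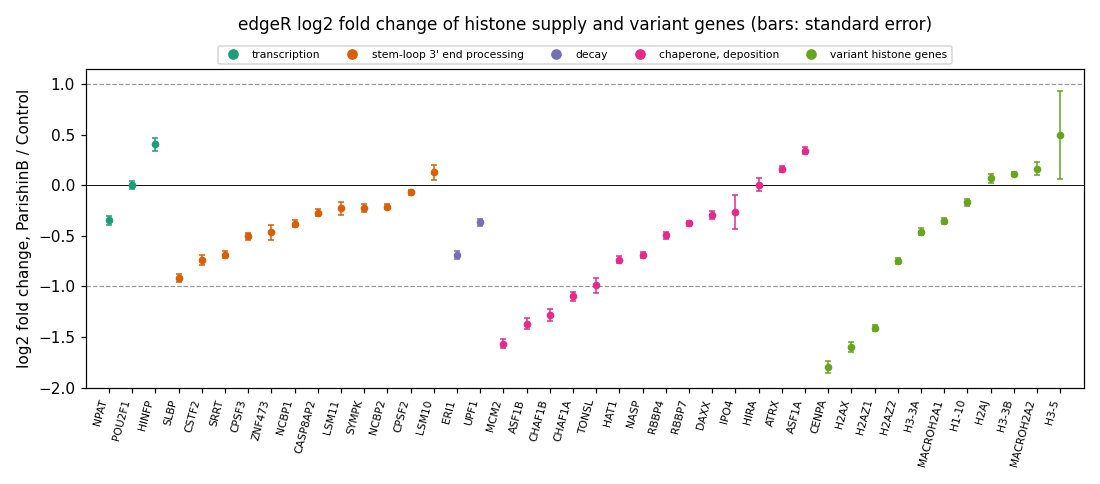
edgeR log2 fold change of ParishinB over Control (vertical axis, bars are the standard error) for 31 genes that transcribe, process, degrade or deposit histones and 11 variant histone genes, ordered by role. Dashed lines mark 1 and -1. MCM2, ASF1B, CHAF1B and CHAF1A among the supply genes and CENPA, H2AX and H2AZ1 among the variants lie under -1, SLBP lies at -0.92, and none lies above 1.

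Variant histone genes outside the rule are made in full or in part as ordinary polyadenylated mRNA, which oligo(dT) capture keeps. Of 11 tested, 3 were called lower and none higher by edgeR or DESeq2, and by adjusted p alone 7 were lower and 2 higher, or 6 lower and 3 higher with library size alone. That is 27.3% called lower and 63.6% lower by adjusted p, beside the same 6.61% and 40.4%, which apply to 10 of the 11. Their median log2 fold change was -0.35. CENPA, the H3 variant of centromeres, had 27.3, 29.2 and 29.5 FPKM in Control and 8.62, 9.10 and 9.37 in ParishinB, and fell by 1.80 on the log2 scale (standard error 0.059). H2AX, the H2A variant phosphorylated at DNA breaks, fell by 1.60 (standard error 0.052), from 44.1 ± 1.44 to 15.9 ± 1.60 FPKM (SD, n = 3). H2AZ1, the H2A.Z variant, fell by 1.41 on the log2 scale (standard error 0.026). H3-3A and H3-3B encode the same H3.3 protein and had opposite signs, at -0.46 (standard error 0.035) and 0.11 (standard error 0.023), both past adjusted p and under the fold line.

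Precision followed the number of reads. The 11 tested genes with at least 300 counts over the 6 libraries had standard errors of 0.058 to 0.19 on the log2 scale, the 4 with 100 to 299 counts 0.22 to 0.35, the 14 with 30 to 99 counts 0.36 to 0.67, and the 15 with under 30 counts 0.68 to 1.90. For the last group a log2 fold change of 1 was not detectable at this depth. Whether the reads came with strand is not stated, and 9 of the 66 genes overlap the span of another gene, among them H2BC5, H4C8 and H2BC6, so part of their counts is uncertain.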

How the data were processed

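Poly(A)-selected libraries from MDA-MB-231 comprised 3 Control and 3 ParishinB libraries, grouped by their labels, with all columns of per-sample values matched by name (0 without a sample) and no library left out. The values deposited by the authors were raw read counts and FPKM, and both were taken unchanged. FPKM as deposited scales the count by exonic length and total count. The submitters' processing notes name HTSeq 0.6.1, Cufflinks 2.2.1, DESeq2 and hg38, while the aligner and the strandedness are not given in the sources used here. Columns of the authors' own comparison were not used.

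Library totals were 15681655 to 21986948 counts. The 24200 genes averaging 0.1 FPKM or more were tested with edgeR 4.0.16 in R 4.3.3 (TMM, quasi-likelihood, Benjamini-Hochberg over all tested genes), with no covariate. The standard errors given with edgeR are the absolute log2 fold change divided by the square root of the quasi-likelihood F. For H4C1 and H4C4, with 0 counts in every ParishinB library, that value is not a usable measure of error. The study used DESeq2, run here as version 1.42.0. The alternatives were DESeq2, limma 3.58.1 with trend on log2(FPKM + 0.1), library size alone, no expression filter, a minimum of 1 FPKM, a log2 fold change line of 2, the replicate number as a block, and each library left out. The procedures were tested on simulated data.

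The 66 genes, the gene lists and the tests were chosen with earlier results of these data known. Genes were named by rule: the 5 highest by mean FPKM of each class, the 5 largest increases and decreases without overlap, the 7 genes with known polyadenylated transcripts, listed supply and variant genes that were called, and SLBP, NPAT, CASP8AP2, LSM10, LSM11, H2AX, H3-3A and H3-3B. Genes under the minimum are given by counts, and 1 gene of the variant list is not reported here. Hairpins came from GENCODE v29 and promoters from RefSeq, and shared sequence was searched in windows of 100 bases.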

Additional observations from a re-analysis of the deposited data

How the results depend on the processing

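The 44 tested histone genes gave 5 calls lower and 2 higher with edgeR, and H2BC11 and H3C8 were called lower under every alternative but the log2 fold change line of 2. DESeq2 called 3 lower and 1 higher, a minimum of 1 FPKM called 2 lower on fewer genes, and that line left 2 lower (H3C2 and H4C4) and 0 higher. By adjusted p alone, 5 instead of 9 genes were lower with DESeq2 and with the minimum of 1 FPKM. Leaving out each library gave 3 to 5 calls lower and 0 to 2 higher, with 3 lower without ParishinB replicate 1 or 3 and 0 higher without Control replicate 1. The median log2 fold change of the 44 genes (-0.31) became -0.18 with library size alone and -0.20 with limma, and ranged from -0.43 to -0.27 with libraries left out. For H2B it became -0.046 with library size alone and ranged from -0.32 to -0.17 with libraries left out. For H3 it became -0.48 with library size alone, -0.45 with limma, -1.18 with the minimum of 1 FPKM and -1.27 with no expression filter. For H4 it became -0.48 with limma and ranged from -1.21 to 0.091 with libraries left out. With TMM-scaled library sizes the log2 ratio of the summed level was -0.054 for all 66 genes, 0.42 for H2A, -0.26 for H2B and -0.87 for H3. Signs turned for H2AC15 (-0.016 with DESeq2, -0.40 to 0.31 with libraries left out), H4C3 (-0.55 with limma, -0.0012 with the replicate block, -2.08 to 0.67 with libraries left out) and H4C8 (0.087 with library size alone and with limma, -0.17 to 0.093 with libraries left out), none of which passed the test in any of them. The causes were not tested beyond what each alternative changes by its construction.

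The labels number the libraries 1 to 3 in both groups, but same-numbered libraries did not deviate together, with correlations of -0.015, 0.044 and -0.026 across genes, so the numbers were not taken to pair them. With the replicate block edgeR called 3 histone genes lower (H2BC11, H3C2 and H3C8) and 2 higher (H2BC21 and H4C12).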
